A study of Mus musculus with 9 samples.

Results

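The 10 genes described here, *Wnt4*, *Lhx1*, *Fgf8*, *Pax8*, *Jag1*, *Lef1*, *Ccnd1*, *Tmem100*, *Emx2* and *Bmp2*, are expressed when kidney progenitor cells leave the cap mesenchyme (CM) and form the pretubular aggregate and then the renal vesicle, the first epithelial stage of the nephron. They were found by symbol among the 26858 genes of the deposited count table, in which each had a single row. The table holds RNA sequencing of eGFP+ SIX2 progenitors sorted from kidneys at E18.5, with 4 control and 5 mutant libraries. In both genotypes a BAC transgene with the *Six2* promoter expressed an eGFP/Cre fusion. Mutant cells (*Six2-Qpc*-/-) were *Six2-eGFP/cre* tg/+;*Qpc* flox/flox and had lost both alleles of *Uqcrq* (*Qpc*), which encodes subunit 7 (QPC) of mitochondrial complex III. Control cells (*Six2-Qpc*+/-) carried the same transgene and were heterozygous, so that they had also lost 1 *Qpc* allele. The sort was by transgene eGFP, a protein that can persist after *Six2* transcription ends, so a gate on it can take in differentiating cells. The study could not fully exclude this for heterozygous cells with low GFP. It also reported a lower share of eGFP+ cells in mutant than in control kidneys. The labels do not say how many embryos each library came from, whether litters were shared, or their sex, and p-values therefore measure the spread between these libraries.

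Nephron formation in the CM begins with canonical Wnt signaling from the ureteric bud (UB). Cells that respond switch on *Wnt4* and *Fgf8*, gather into the pretubular aggregate, and then express *Lhx1* and *Jag1* as they undergo mesenchyme to epithelial transition (MET) and polarize into the renal vesicle, in which Notch ligands act on the proximal part. *Wnt4* is required for the transition itself, *Fgf8* for survival and for the expression of *Wnt4* and *Lhx1*, and *Lhx1* for the progress of the vesicle to later stages.

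Library totals ranged from 22571729 to 23691130 counts in control and from 21040536 to 23986458 in mutant libraries. The targeted gene *Uqcrq* was at 94.1 ± 13.3 counts per 1000000 after TMM normalization (CPM) in the controls (SD, n = 4) and at 21.3 ± 4.45 CPM in the mutants (SD, n = 5), with no overlap. The summed level of 6 nephron progenitor markers (*Six2*, *Cited1*, *Eya1*, *Sall1*, *Osr1*, *Meox1*) was 1456 to 1793 CPM in control and 1662 to 1975 CPM in mutant libraries, and none of the 6 passed the threshold of the edgeR test (1 had an unadjusted p under 0.05). The UB markers *Ret* and *Wnt9b* were at 0 to 13 and 0 to 7 reads per library. Transcripts of the Y chromosome were high in control replicates 72 and 73 and in mutant replicate 79 (8.04 to 8.36 on the log2 CPM scale) and near absent in the other 6 libraries (-1 to -0.56).

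Of the 10 genes, 5 were lower in mutant cells at an adjusted p under 0.05 and 0 were higher. Over all 14990 genes tested, 14.8% passed the threshold, 7.02% in the lower and 7.82% in the higher direction. The 5 were *Lhx1*, *Emx2*, *Wnt4*, *Ccnd1* and *Tmem100*, with log2 fold changes from -2.36 to -0.98. *Fgf8*, *Jag1* and *Lef1* had fitted values of -1.11, -0.69 and -0.62 that did not pass after adjustment, although 8 of the 10 genes had an unadjusted p under 0.05. *Bmp2* and *Pax8* were at -0.31 and 0.00. DESeq2 called 6 of the 10 lower, with *Fgf8* added, and 0 higher. The median of the 10 fitted values was -1.04, against -0.01 over all genes tested. All 10 genes passed the filter on low counts, *Emx2* only through its control libraries, so its call among the 5 was favoured in advance. The study selected *Wnt4*, *Lhx1*, *Fgf8*, *Lef1* and *Jag1* from these libraries as lower in mutant cells, so their direction is not independent evidence. It also measured *Wnt4* and *Lhx1* by quantitative real-time PCR, and examined *Wnt4* RNA and the LHX1 and JAG1 proteins in kidney sections.

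**Figure D1:**
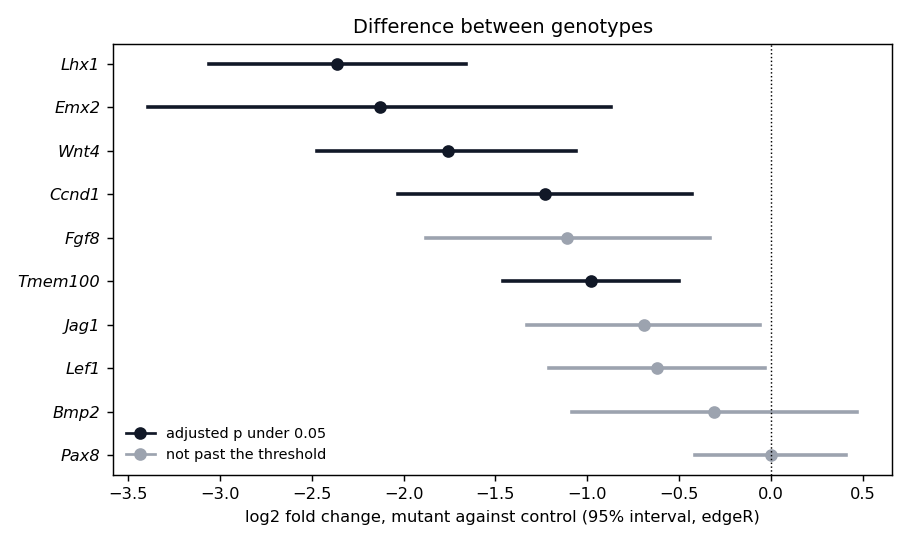
Log2 fold change of each gene, mutant (n = 5) against control (n = 4), on the horizontal axis, with its 95% interval from the edgeR fit. The intervals of *Lhx1*, *Emx2*, *Wnt4*, *Ccnd1* and *Tmem100* lie below 0 and their adjusted p is under 0.05 (dark). Those of *Fgf8*, *Jag1* and *Lef1* also lie below 0, but their adjusted p is not under 0.05 (grey). *Pax8* is centred on 0, with an interval from -0.41 to 0.41.

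In bulk RNA, fewer cells that express a gene and less RNA of it per cell cannot be told apart, and this holds for each difference below.

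The promoter sequences of *Wnt4*, *Lhx1* and *Pax8* are shown because *Wnt4* and *Lhx1* were among the 3 genes that fell most and *Pax8*, known to act beside them in the pretubular aggregate, had a fitted value near 0. They come from RefSeq windows on GRCm38.p6, cut to the bases before the annotated gene start, and are written 5′ to 3′ on the strand of the gene. Capitals mark a CCAAT box (CCAAT) or a GC box (GGGCGG) on either strand, where GC boxes may overlap each other.
*Wnt4*, chr4:137277385-137277488, plus strand: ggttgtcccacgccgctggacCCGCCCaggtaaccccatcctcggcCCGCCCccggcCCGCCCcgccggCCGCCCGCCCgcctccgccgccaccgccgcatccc
*Lhx1*, chr11:84525536-84525784, minus strand: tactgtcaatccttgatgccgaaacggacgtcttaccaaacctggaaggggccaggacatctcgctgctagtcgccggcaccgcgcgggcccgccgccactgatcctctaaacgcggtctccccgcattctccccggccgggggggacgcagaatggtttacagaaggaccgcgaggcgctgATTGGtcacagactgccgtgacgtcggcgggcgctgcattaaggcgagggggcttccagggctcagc
*Pax8*, chr2:24475600-24475849, minus strand: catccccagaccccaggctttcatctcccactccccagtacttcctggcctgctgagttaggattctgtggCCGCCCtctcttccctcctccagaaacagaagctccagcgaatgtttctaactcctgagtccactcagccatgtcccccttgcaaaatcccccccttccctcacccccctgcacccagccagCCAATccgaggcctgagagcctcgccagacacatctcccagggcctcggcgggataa
The *Wnt4* window of 300 bases was 84.3% G and C and held 8 GC boxes and 0 CCAAT boxes. The *Lhx1* window (65.7% G and C) held 1 CCAAT box and 0 GC boxes, and the *Pax8* window (59.3%) held 1 of each. Windows were given for 6 of the 10 genes (*Wnt4*, *Lhx1*, *Pax8*, *Jag1*, *Lef1* and *Emx2*), 9 windows in all. The letters of a TCF/LEF motif (CTTTGAA as well as CTTTGAT, and CTTTGTA as well as CTTTGTT, on either strand), the site through which canonical Wnt signaling acts on DNA, stood in 1 of the 6 genes, in 1 of the 4 windows of *Lef1*. That is 1 of the 9 windows, and the share over all 32851 windows of that length was 16.9%. The letters TGGGAA, the core of the site of the Notch effector RBPJ, stood in windows of 2 of the 6 genes, *Lef1* and *Emx2*. These were 4 of the 9 windows, against 25.6% of all windows, with overlapping windows of *Lef1* counting the same letters more than once. CCAAT and GC boxes stood in 37.4% and 35.7% of all windows. A match describes letters in these windows and is not evidence of binding, and no match says only that the letters are not there.

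*Wnt4* (ENSMUSG00000036856, chromosome 4, 137277489 to 137299726, plus strand) encodes the secreted Wnt ligand that drives MET. The control libraries, replicates 71, 72, 73 and 76, had 262, 283, 277 and 113 CPM. The mutant libraries, replicates 74, 75, 77, 78 and 79, had 116, 36.1, 73.9, 63.5 and 54.6 CPM. In these values 3 controls were close together and far above all mutants, whereas control replicate 76 was just below mutant replicate 74, so the genotypes overlapped by this single pair. The means were 234 ± 81.0 CPM for the controls (SD, n = 4) and 68.7 ± 29.6 CPM for the mutants (SD, n = 5), 3.40-fold lower by the fit (log2 fold change -1.76, SE 0.32, 95% interval -2.47 to -1.06, adjusted p = 0.0058, edgeR). The call held with each library left out in turn, at fitted values from -2.04 to -1.60, and was lost with 1 surrogate variable (-1.43, adjusted p = 0.0549).

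*Lhx1* (ENSMUSG00000018698, chromosome 11, 84518284 to 84525535, minus strand) encodes a LIM homeobox transcription factor of the renal vesicle. Its control libraries, in the same order, had 4.05, 7.40, 7.12 and 3.46 CPM. The mutant libraries had 1.53, 1.15, 0.816, 0.836 and 0.998 CPM. The lowest control stood above the highest mutant by more than the whole range of the mutants. The log2 fold change was -2.36 (SE 0.32, 95% interval -3.06 to -1.66, adjusted p = 0.00102, edgeR; 2-sided exact permutation test, p = 0.00794, the smallest that 4 against 5 libraries allow), or 5.12-fold lower in mutant cells. With a library left out it remained between -2.53 and -2.18 and past the threshold.

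The noncoding gene *Lhx1os* (ENSMUSG00000087211) runs away from *Lhx1* on the other strand and starts 125 bases from the start of *Lhx1*, at 84525660, inside the promoter sequence printed above. It was looked at after its values were seen. Its control libraries had 5.88, 4.24, 6.66 and 2.91 CPM and its mutant libraries 2.56, 1.59, 1.99, 2.80 and 1.63 CPM, without overlap between genotypes. *Lhx1os* was lower in mutant cells (log2 fold change -1.22, SE 0.30, adjusted p = 0.0189, edgeR). The 2 genes share 0 exon bases in the annotation, and reads carry no strand in these libraries.

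*Emx2* (ENSMUSG00000043969, chromosome 19, 59458372 to 59465357, plus strand), a homeobox transcription factor of the renal vesicle that is also known from the UB, was the weakest of the 10. It had 33, 18, 11 and 14 reads in the control libraries and 7, 1, 5, 4 and 2 reads in the mutant libraries, and 2 of the 9 libraries were at or under the floor of 3 reads. Those reads correspond to 0.464 to 1.41 CPM in control and 0.0443 to 0.298 CPM in mutant cells, without overlap. Summed over libraries, 76 control reads stood against 19 mutant reads, a 4.47-fold lower rate in mutant cells (exact 95% interval 2.68 to 7.84, counting error only). The fitted log2 fold change was -2.13 (SE 0.58, 95% interval -3.39 to -0.87, adjusted p = 0.0284, edgeR). *Emx2* passed the filter on low counts only through its control libraries. Lower mutant values were therefore favoured in advance, and neither the ratio, the lack of overlap nor the call is support for a fall. Leaving out control replicate 71 or 72 or mutant replicate 75, 78 or 79 gave -1.70, -2.18, -1.88, -2.17 and -1.97, and the call was lost in each of these fits (adjusted p from 0.0515 to 0.106). It was also lost when all genes with at least 1 count in any library were kept (-2.13, adjusted p = 0.0524). *Emx2* shares 264 of its 3002 annotated exon bases with *Emx2os* on the other strand, which had 0 to 15 reads per library, with an adjusted p of 0.788.

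**Figure D2:**
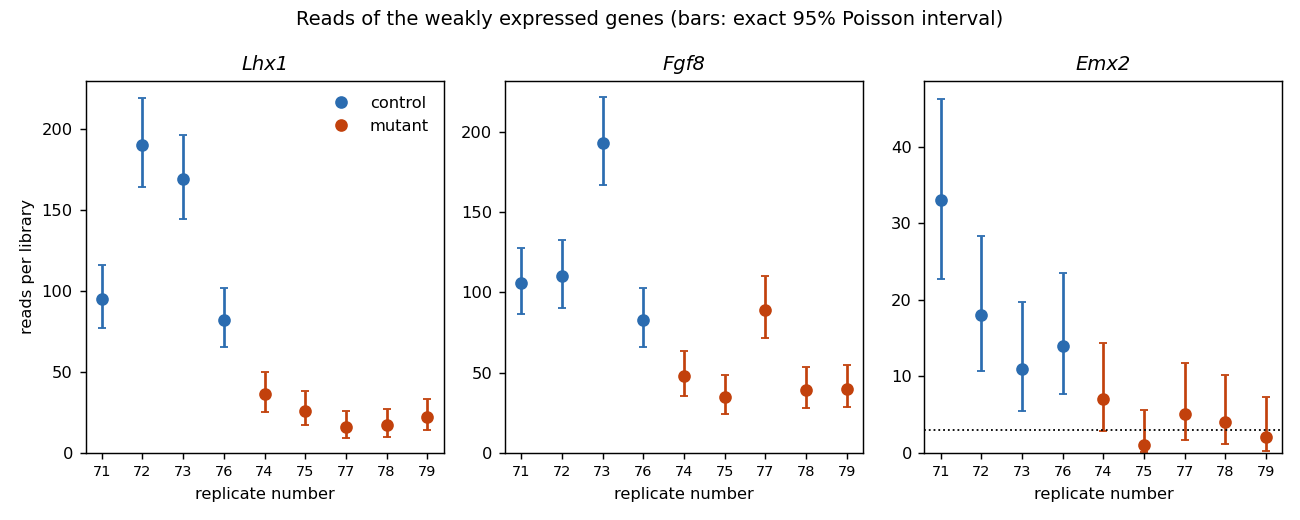
Reads per library (vertical axis) of *Lhx1*, *Fgf8* and *Emx2* in the control (blue) and mutant (orange) libraries, named by replicate number, with exact 95% Poisson intervals that cover counting error only. The dotted line in the *Emx2* panel is the floor of 3 reads. For *Lhx1* the interval of the lowest control (82 reads, 65.2 to 102) lies above that of the highest mutant (36 reads, 25.2 to 49.8), whereas for *Emx2* the intervals of 11 control reads (5.49 to 19.7) and 7 mutant reads (2.81 to 14.4) overlap.

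The other weakly expressed genes rested on more reads. *Lhx1* had 536 reads over the control libraries and 117 over the mutant libraries, a ratio of rates of 5.12 (4.19 to 6.31). *Fgf8* had 492 and 251 reads, a ratio of 2.19 (1.88 to 2.56). The intervals of these ratios cover counting error only and leave out the spread between libraries. With that spread included, *Fgf8* had a log2 fold change of -1.11 (interval -1.88 to -0.33) and missed the threshold (adjusted p = 0.054, edgeR). For *Emx2* and *Lhx1* in mutant cells, the coefficient of variation between libraries was 60.7% and 27.6%, close to the 51.3% and 20.7% that counting alone gives at 3.80 and 23.4 reads per library. For every other gene and genotype it was at least 2.33 times the counting value, and for *Wnt4* it was 34.7% in control cells, where counting alone gives 1.33%. Depth thus limited only the mutant values of *Emx2* and *Lhx1*, and for the rest the spread between libraries was larger than counting error.

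*Pax8* (ENSMUSG00000026976, chromosome 2, 24420560 to 24475599, minus strand) encodes a paired-box transcription factor that marks the pretubular aggregate and the epithelium that follows. Control libraries had 169, 154, 231 and 173 CPM and mutant libraries 111, 171, 247, 192 and 186 CPM. Both the lowest and the highest of the 9 values were mutant. The fitted ratio of mutant to control was 0.999, with a 95% interval on the log2 scale of -0.41 to 0.41 (adjusted p = 0.996, edgeR). This interval does not reach the fitted values of *Wnt4* (-1.76), *Lhx1* (-2.36) or *Fgf8* (-1.11). Those values have their own error, and the 95% interval of *Fgf8* (-1.88 to -0.33) overlaps that of *Pax8*. No test between genes was made. The sign of the *Pax8* value turned with the scaling (0.01 with DESeq2 size factors). With mutant replicate 74 left out it was 0.13.

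*Lef1* (ENSMUSG00000027985, chromosome 3, 131110471 to 131224356, plus strand) encodes a nuclear partner of beta-catenin and is itself switched on by canonical Wnt signaling. Control libraries had 13.1, 16.9, 16.7 and 9.66 CPM. Mutant libraries had 15.1, 7.17, 6.63, 6.25 and 10.7 CPM, and mutant replicates 74 and 79 lay within the control range. The difference of -0.62 (SE 0.28, 95% interval -1.21 to -0.03) did not pass the threshold (adjusted p = 0.143, edgeR). It passed without mutant replicate 74, at -0.87 with an adjusted p of 0.0214, and did not pass with any other library left out (-0.75 to -0.51, adjusted p from 0.0863 to 0.312). The antisense gene *Gm43352* shares 1208 of 8788 annotated exon bases with *Lef1* and has no row in the table.

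Among the ligands, *Fgf8* (ENSMUSG00000025219, chromosome 19, 45736798 to 45742915, minus strand), a fibroblast growth factor of the pretubular aggregate, had 4.52, 4.28, 8.13 and 3.50 CPM in control libraries. The mutant libraries had 2.05, 1.55, 4.54, 1.92 and 1.81 CPM. In 4 mutant libraries *Fgf8* was below every control, and mutant replicate 77 was above 3 of the 4 controls. The log2 fold change was -1.11 (SE 0.36, 95% interval -1.88 to -0.33) and its adjusted p of 0.054 missed the threshold. Without mutant replicate 77 the value was -1.48 (adjusted p = 0.0139), and without control replicate 76 it was -1.24 (adjusted p = 0.0464). It moved the other way without control replicate 73, to -0.79 (adjusted p = 0.207), and in the remaining fits with a library left out the adjusted p was 0.0642 to 0.111.

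*Jag1* (ENSMUSG00000027276, chromosome 2, 137081456 to 137116644, minus strand) encodes a Notch ligand of the renal vesicle. It had 11.3, 11.6, 14.9 and 5.74 CPM in control and 10.9, 5.31, 6.07, 4.82 and 6.58 CPM in mutant libraries. The 3 controls other than replicate 76 were above every mutant, though only just above mutant replicate 74. The difference was -0.69 (SE 0.29, 95% interval -1.33 to -0.06, adjusted p = 0.125, edgeR). Without control replicate 76 it was -0.90 and without mutant replicate 74 it was -0.94, and both passed the threshold (adjusted p = 0.0406 and 0.0264). Without control replicate 73 it was -0.51 (adjusted p = 0.346), and in the remaining fits with a library left out the adjusted p was 0.181 to 0.236.

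*Bmp2* (ENSMUSG00000027358, chromosome 2, 133552159 to 133562885, plus strand) encodes a bone morphogenetic protein found in the renal vesicle. It had 6.48, 7.59, 11.2 and 4.47 CPM in control and 6.48, 2.08, 8.01, 8.21 and 5.26 CPM in mutant libraries. Apart from mutant replicate 75, the mutant values lay within the control range. The difference of -0.31 (SE 0.36, 95% interval -1.08 to 0.47, adjusted p = 0.599, edgeR) became -0.09 without mutant replicate 75 and -0.04 without control replicate 73. The interval still takes in a change of the size seen for *Tmem100*.

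*Ccnd1* (ENSMUSG00000070348, chromosome 7, 144929931 to 144939869, minus strand) encodes cyclin D1, which carries cells through G1, and is switched on in the aggregate and the vesicle. Control libraries had 56.6, 71.3, 112 and 28.7 CPM and mutant libraries 50.9, 29.7, 22.5, 21.4 and 19.0 CPM. Control replicate 76 lay among the mutants, and mutant replicate 74 was close to control replicate 71. *Ccnd1* fell in mutant cells by the fit (log2 fold change -1.23, SE 0.37, 95% interval -2.03 to -0.43, adjusted p = 0.0438, edgeR). Its call was lost in 11 of 18 alternatives, the most of the 5. Among them were the fits in which control replicate 71, 72 or 73 was left out (-1.30, -1.20 and -0.86, adjusted p = 0.0663, 0.124 and 0.128) and those in which mutant replicate 75, 77, 78 or 79 was left out (-1.24, -1.15, -1.14 and -1.11, adjusted p from 0.0816 to 0.1). With 1 surrogate variable its value was -0.74 (adjusted p = 0.227). *Ccnd1* shares 1100 of 4709 annotated exon bases with *LTO1* on the other strand, which the table lists as *Oraov1*. *Oraov1* was at 23.5 ± 1.71 CPM in the controls (SD, n = 4) and at 24.2 ± 5.90 CPM in the mutants (SD, n = 5), with an adjusted p of 0.888.

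*Tmem100* (ENSMUSG00000069763, chromosome 11, 90030348 to 90036508, plus strand) encodes a small membrane protein of the renal vesicle and of endothelium. It had 48.7, 33.6, 68.1 and 32.9 CPM in control and 29.3, 21.7, 27.0, 17.7 and 20.5 CPM in mutant libraries. Every mutant was below every control, with a narrow gap between mutant replicate 74 and control replicate 76. *Tmem100* was 1.97-fold lower in mutant cells (log2 fold change -0.98, SE 0.22, 95% interval -1.46 to -0.50, adjusted p = 0.0124, edgeR), and remained past the threshold at -1.10 to -0.72 with a library left out.

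*Lhx1*, *Tmem100* and *Emx2* were the 3 of 10 genes without overlap between genotypes, each lower in mutant cells, against 7.73% of all genes tested. *Emx2* passed the filter on low counts only through its control libraries, so its lower mutant values were favoured in advance and are no support. *Wnt4* and *Ccnd1* passed the test with overlap.

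**Figure D3:**
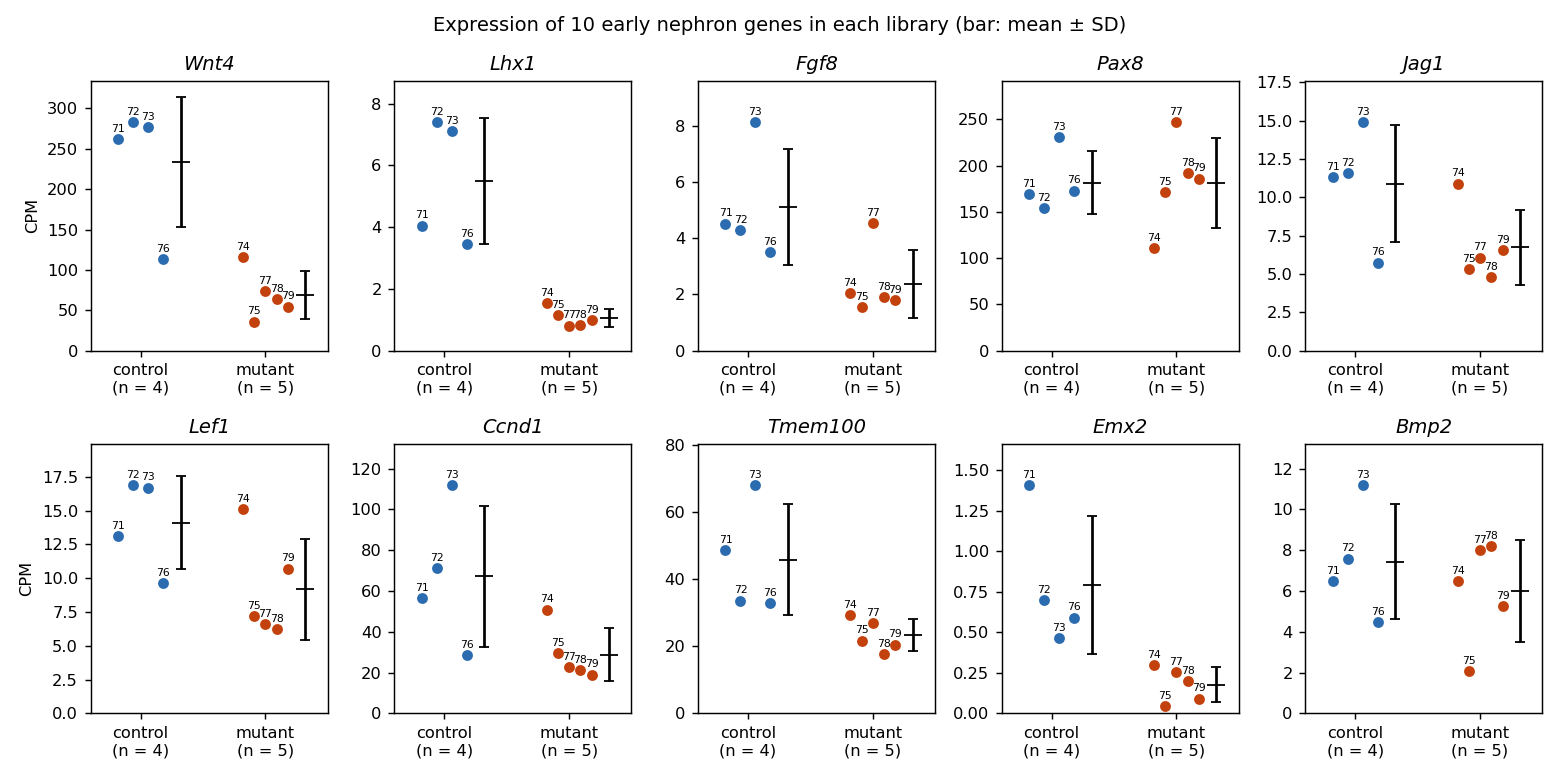
CPM (vertical axis) of each of the 10 genes in the 4 control (blue) and 5 mutant (orange) libraries, labelled with the replicate number. The bar beside each group is the mean ± SD. The genotypes do not overlap for *Lhx1*, *Tmem100* and *Emx2*, control replicate 76 stands apart from the other controls for *Wnt4* (113 CPM against 262 to 283), and *Pax8* has means of 182 and 181 CPM.

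Per gene length (reads per kilobase of gene length per 1000000 of normalized library size, RPKM), the levels of the 10 genes spanned a wide range in control cells. *Wnt4* (55.7 ± 19.3 RPKM, SD, n = 4) and *Pax8* (53.6 ± 9.95) were highest and did not separate, since *Wnt4* was above *Pax8* in 2 of the 4 libraries. *Tmem100* (25.9 ± 9.36) and *Ccnd1* (18.0 ± 9.31) came next and kept that order in 3 of 4 libraries. *Fgf8* (4.37 ± 1.77) and *Lef1* (3.85 ± 0.935) formed a lower pair, in order in 3 of 4 libraries, above *Bmp2* (2.09 ± 0.790) and *Jag1* (1.94 ± 0.678). *Lhx1* (1.43 ± 0.531) was below *Jag1*, and *Emx2* (0.271 ± 0.145) was the lowest, each in 4 of 4 libraries.

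In mutant cells *Pax8* (53.6 ± 14.4 RPKM, SD, n = 5) was above *Wnt4* (16.4 ± 7.06) in 5 of 5 libraries, and *Wnt4* was above *Tmem100* (13.2 ± 2.71) in 4 of 5. Below *Ccnd1* (7.67 ± 3.48), the levels of *Lef1* (2.51 ± 1.03), *Fgf8* (2.03 ± 1.05), *Bmp2* (1.69 ± 0.704) and *Jag1* (1.20 ± 0.429) were close, each being above the next in 3 or 4 of 5 libraries. *Lhx1* (0.277 ± 0.0765) and *Emx2* (0.0607 ± 0.0369) stayed at the bottom. These levels assume the deposited gene length and poly(A) libraries read evenly along each transcript.

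Within a genotype, several of the 10 genes deviated together. Control replicate 76 was the lowest of the 4 controls for 8 of the 10 genes (all but *Pax8* and *Emx2*) and below the control mean for all 10, with a median deviation of -0.51 on the log2(CPM + 0.5) scale. Over all genes tested it was the lowest control for 27.0%. Control replicate 73 was the highest control for *Fgf8*, *Pax8*, *Jag1*, *Ccnd1*, *Tmem100* and *Bmp2*, 6 of 10, against 17.9% of all genes. *Wnt4*, *Lhx1* and *Lef1* had their highest control value in replicate 72 and *Emx2* in replicate 71.

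Among the mutants, replicate 74 was the highest for 7 of the 10 genes (*Wnt4*, *Lhx1*, *Jag1*, *Lef1*, *Ccnd1*, *Tmem100* and *Emx2*) and the lowest for *Pax8*, and it was the highest mutant for 26.8% of all genes tested. Its deviations were 0.91 for *Ccnd1*, 0.85 for *Wnt4*, 0.77 for *Lef1*, 0.71 for *Jag1* and -0.66 for *Pax8*, on the log2(CPM + 0.5) scale. Mutant replicate 75 was the lowest for *Wnt4*, *Fgf8*, *Emx2* and *Bmp2*, and mutant replicate 78 for *Jag1*, *Lef1* and *Tmem100*. Mutant replicate 77 was the highest for *Fgf8* and *Pax8* and the lowest for *Lhx1*. *Bmp2* was highest in mutant replicate 78, and *Ccnd1* lowest in mutant replicate 79. With the mean of the 10 centred log2(CPM + 0.5) values taken as a profile, control replicates 71, 72, 73 and 76 were at 0.55, 0.59, 0.95 and -0.04 and mutant replicates 74, 75, 77, 78 and 79 at -0.04, -0.72, -0.25, -0.53 and -0.51, so that control replicate 76 and mutant replicate 74 met in the middle. No correlation across libraries is given, since neither genotype has 6 libraries and pooling them would mix in the difference between genotypes.

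**Figure D4:**
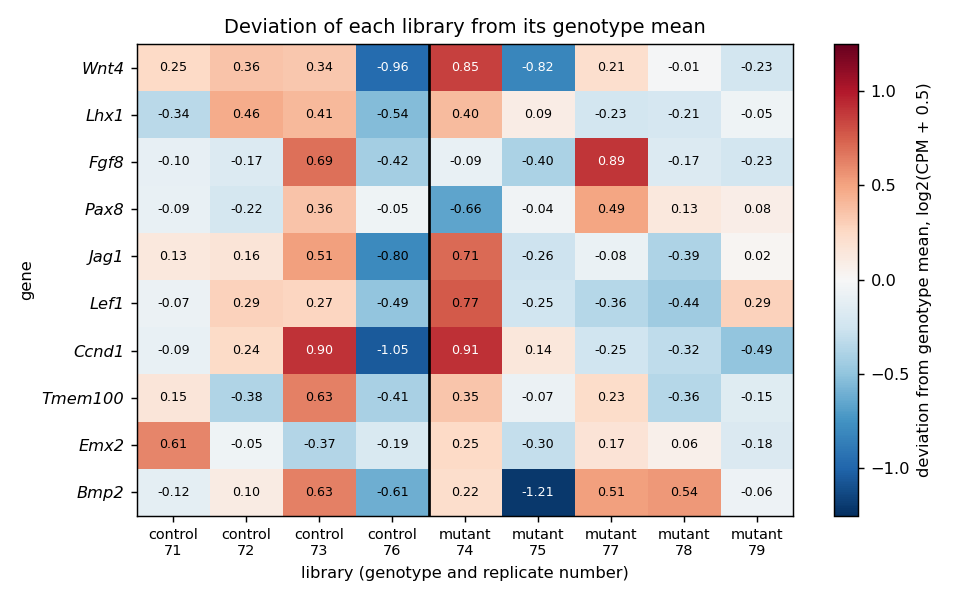
Deviation of each library (columns) from the mean of its genotype on the log2(CPM + 0.5) scale for each gene (rows), red above and blue below the mean. Control replicate 76 is below the mean in all 10 rows, and mutant replicate 74 is above it in 8 rows, with *Pax8* at -0.66.

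Genes with the most similar profile over the 9 libraries, by root mean square distance from the mean profile of the 10 genes among 9335 genes whose mean reached 10 CPM, included *Zfp532* (0.187), *Ccdc18* (0.190), *Tmem231* (0.195), *Gm8113* (0.203), *Mvk* (0.203), *Kif2c* (0.207) and *Ccdc91* (0.210). Of the 10 genes themselves, *Tmem100* (0.213) and *Jag1* (0.242) were nearest to the profile and *Lhx1* (0.547) and *Pax8* (0.621) farthest from it.

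Other values also differed between libraries or genotypes. Control replicate 76 had the highest summed progenitor markers of the controls (1793 CPM) and their lowest mean profile value (-0.04). Mutant replicates 74 and 75 had the lowest sums of the mutants (1706 and 1662 CPM). Their mean profile values were the highest and the lowest of the mutants (-0.04 and -0.72). The summed UB markers were lowest of the controls in replicate 76 (44.9 CPM) and highest of the mutants in replicate 74 (49.4 CPM). So were the podocyte markers (18.1 and 40.4 CPM). The proximal tubule markers were the highest of their genotype in both of these libraries (6.37 and 12.1 CPM). Of 5 stromal markers tested, 4 were higher in mutant cells, with a summed level of 63.4 to 102 CPM in control and 142 to 480 CPM in mutant libraries. Of 6 myeloid markers, 2 were higher (2.34 to 7.59 against 5.97 to 67.1 CPM summed). All 6 had an unadjusted p under 0.05 by edgeR, and 0 had a fitted value below 0. The summed UB markers were 44.9 to 62.9 CPM in control and 27.3 to 49.4 CPM in mutant libraries, with 0 of 3 tested past the threshold by edgeR and 3 at an unadjusted p under 0.05, and *Ret*, *Wnt9b* and *Gata3* were too low to test. Most of the UB sum came from *Hoxb7* (40.5 CPM in control and 29.3 CPM in mutant cells) and *Wnt11* (12.9 and 7.17 CPM). *Calb1* went the other way (0.356 and 2.69 CPM), with 0 to 11.0 CPM in mutant libraries. The summed endothelial markers, relevant to *Tmem100*, *Lef1*, *Jag1* and *Bmp2*, were 16.2 to 23.9 and 5.08 to 13.7 CPM, in control cells mostly from *Plvap*, which was lower in mutant cells (17.7 and 4.83 CPM, adjusted p = 0.00121), whereas *Cdh5* and *Tie1* were at 0 to 17 and 0 to 14 reads and *Pecam1* was higher (0.248 and 1.36 CPM, adjusted p = 0.0469). The part of any of these in the results was not tested. Podocyte, proximal tubule, loop and erythroid markers had 0 of 7 tested genes past the threshold by edgeR (2 with an unadjusted p under 0.05).

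With only the 6 libraries of low Y-linked expression (2 control, 4 mutant), 0 of the 10 genes passed the edgeR test, 4 had an unadjusted p under 0.05, and 90 genes of all tested passed. The fitted values were -1.79 for *Lhx1*, -2.31 for *Emx2*, -1.38 for *Wnt4* and -0.78 for *Tmem100*, but -0.46 for *Ccnd1*. The libraries of high Y-linked expression (2 control, 1 mutant) were too few to compare. With Y-linked expression as a covariate over all 9 libraries, *Wnt4*, *Lhx1*, *Tmem100* and *Emx2* passed and *Ccnd1* did not (-1.01, adjusted p = 0.168).

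Of 18 other genes known from the pretubular aggregate, the renal vesicle or the stages just after them, 13 were expressed highly enough to be tested. Of these, 2 were lower and 1 was higher in mutant cells (7.02% and 7.82% of all genes tested). The median was -0.68, and 12 of 13 fitted values were below 0 (50.8% of all genes tested were below 0). *Osr2*, a zinc finger transcription factor, fell without overlap, from 16.5 ± 6.13 CPM (SD, n = 4) to 3.78 ± 1.84 CPM (SD, n = 5; log2 fold change -2.12, SE 0.38, adjusted p = 0.00412). *Greb1* fell by 1.23 on the log2 scale (adjusted p = 0.0307). *Pla2g7*, a secreted phospholipase, rose by 0.61 (adjusted p = 0.034). The Notch ligand *Dll1* (-0.93) and the Wnt inhibitor *Dkk1* (-0.83) did not pass, and *Hes5*, *Pou3f3*, *Irx1*, *Irx2* and *Cdh1* were too low to test. Leaving out a library gave 1 to 3 called genes, with 1 without control replicate 71, 72 or 73 or mutant replicate 75, 77, 78 or 79.

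Of 15 genes of the uninduced progenitors, which precede this program, 0 passed the edgeR test (4 had an unadjusted p under 0.05, and DESeq2 called 1), with a median of 0.00. Without mutant replicate 74 or 75, 1 was called. *Six2* had a value of 0.30 (adjusted p = 0.131), *Cited1* 0.11 and *Eya1* 0.10. Of the 15 fitted values, 8 were below 0. Among these were *Hoxa11* (-0.64, adjusted p = 0.0701), *Pax2* (-0.55, adjusted p = 0.0881) and *Crym* (-0.42, adjusted p = 0.0698).

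In the Wnt pathway, 2 of 32 tested genes were lower and 2 higher, with a median of 0.06. These counts are near the shares over all genes tested, 7.02% lower and 7.82% higher. The lower genes were the receptor *Fzd10* (-1.47, adjusted p = 0.0469) and the secreted agonist *Rspo1* (-0.53, adjusted p = 0.037). The higher genes were *Axin2*, a feedback target of canonical signaling, and the secreted inhibitor *Sfrp1* (0.90, adjusted p = 0.0486). *Axin2* rose from 2.40 ± 0.147 CPM (SD, n = 4) to 4.86 ± 1.94 CPM (SD, n = 5) without overlap (1.02, adjusted p = 0.0431), while *Lef1*, also a target, had a fitted value of -0.62. Between 0 and 3 genes were called with a library left out, 0 of them without control replicate 72, 1 without control replicate 73 or mutant replicate 75, 77 or 78, and 2 without control replicate 71 or 76 or mutant replicate 79.

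In the FGF pathway, 0 of 18 tested genes passed the edgeR test (5 had an unadjusted p under 0.05, and DESeq2 called 4), and the median was 0.12. Without mutant replicate 74, 4 genes were called, and without mutant replicate 77, 1. The receptor *Fgfr1* had a value of 0.33 (adjusted p = 0.121). The feedback genes *Spry1*, *Spry2*, *Spry4*, *Spred1*, *Spred2* and *Dusp6* had values of 0.17, 0.68, 0.55, 0.28, 0.09 and 0.15. The transcription factors *Etv4* and *Etv5* had values of -0.09 and 0.23. *Spry2* and *Spred1* were higher in mutant cells without overlap but did not pass (adjusted p = 0.09 and 0.161, edgeR). Of the 18 fitted values, 7 were below 0, among them *Fgfr3* (-1.29, adjusted p = 0.0832) and *Fgf1* (-0.63, adjusted p = 0.0629).

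In the Notch pathway, 2 of 19 tested genes were lower and 2 higher (7.02% and 7.82% of all genes tested), with a median of -0.23. *Nrarp*, a feedback target of Notch, fell from 9.97 ± 1.93 CPM (SD, n = 4) to 3.18 ± 0.688 CPM (SD, n = 5) without overlap (-1.65, SE 0.23, adjusted p = 0.00116), and the receptor *Notch4* fell by 0.87 (adjusted p = 0.0117). *Hes1*, also a Notch target, rose from 106 ± 18.4 to 160 ± 24.4 CPM without overlap (0.59, adjusted p = 0.0198), as did the coactivator *Maml1* (0.78, adjusted p = 0.0168). The targets *Hey2* and *Heyl* had values of -1.15 and -0.62 and did not pass (adjusted p = 0.0714 and 0.0681). The number called was 2 without control replicate 73, 7 without control replicate 76 and 8 without mutant replicate 74.

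In the BMP pathway, 1 of 22 tested genes was lower and 2 were higher, with a median of 0.08. These counts are near the shares over all genes tested, 7.02% lower and 7.82% higher. *Bmper*, a secreted regulator of BMP ligands, fell from 305 ± 60.6 CPM (SD, n = 4) to 148 ± 7.10 CPM (SD, n = 5; -1.05, SE 0.13, adjusted p = 0.000605), without overlap. *Smad5* and the receptor *Bmpr2* rose by 0.49 and 0.47 (adjusted p = 0.0165 and 0.0416). The ligands *Bmp4* and *Bmp7* had values of 0.04 and 0.27, like *Bmp2* (-0.31) not past the threshold. Without control replicate 73, 1 gene was called.

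**Figure D5:**
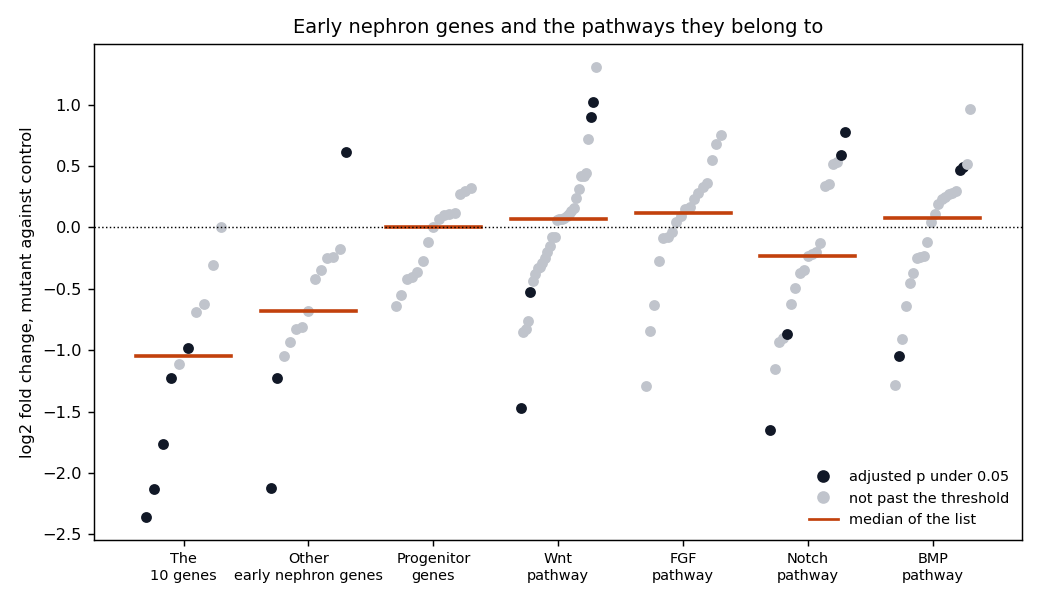
Log2 fold change, mutant against control, of each tested gene (points, sorted within each list) for the 10 genes and 6 lists of related genes. Dark points have an adjusted p under 0.05 and the orange line is the median of a list. The median is -1.04 for the 10 genes, -0.68 for the other early nephron genes, and between -0.23 and 0.12 for the progenitor, Wnt, FGF, Notch and BMP lists.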

How the data were processed

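RNA sequencing of eGFP+ cells from 4 control and 5 mutant samples at E18.5 was analysed. Per the labels, cDNA was amplified directly from sorted cells with poly(A) selection and libraries were not strand-specific, which leaves reads of overlapping genes on opposite strands unresolved. The submitters' processing notes name STAR, DESeq2 and mm10; the counting tool and the annotation are not given in the sources used here. The authors deposited counts per gene, used here as deposited. The authors also deposited FPKM values, mean normalized signals for each genotype, and the log2 fold changes, p-values and adjusted p-values of their own comparison, none of which was used. Identifiers of *Ccnd1* and *Tmem100* in the table belong to other genes, so genes were matched by symbol and identifiers taken from GENCODE.

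The comparison used edgeR 4.0.16 in R 4.3.3 (filterByExpr, TMM, robust quasi-likelihood test, Benjamini-Hochberg adjustment over 14990 genes, threshold 0.05); the script was checked on simulated counts. Single values were compared by a 2-sided exact permutation test over 126 splits. Library totals of 21040536 to 23986458 counts leave little counting error for abundant genes. Intervals of read counts and of ratios of summed reads, and the floor of 3 reads, cover counting error only.

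The 10 genes, the related lists and the cell type markers were chosen with earlier results of these data known. Named genes were the 10, list genes past the threshold or of a known role, and those among the 8 nearest profiles that are reported here; *Lhx1os*, *Emx2os* and *Oraov1* were added after their values were seen. Alternatives were DESeq2 1.42.0, RLE and upper-quartile scaling, no filter beyond 1 count in any library, limma-voom 3.58.1 with quality weights, a minimum of 10 counts in every library, 1 surrogate variable (sva 3.50.0), a Y-linked covariate and each library left out. The fit on libraries of low Y-linked expression was chosen after seeing the data. Promoter windows are from RefSeq.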

Additional observations from a re-analysis of the deposited data

Results flagged for a closer look

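In 2 of the 20 groups of 4 or 5 libraries (10 genes in each genotype), 1 library stood apart from the rest by Dixon's criterion, where chance gives about 1 in 20. *Wnt4* in control replicate 76 was at 113 CPM, while the other controls were at 262 to 283 CPM. *Fgf8* in mutant replicate 77 was at 4.54 CPM, while the other mutants were at 1.55 to 2.05 CPM. Without control replicate 76 the log2 fold change of *Wnt4* was -1.98, and without mutant replicate 77 that of *Fgf8* was -1.48.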

How the results depend on the processing

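No gene of the 10 was called higher in mutant cells under any of the 18 alternatives, and the number called lower, 5 in the comparison reported, was 8 with limma-voom, 3 with 1 surrogate variable (*Lhx1*, *Tmem100* and *Emx2*), 0 with only the libraries of low Y-linked expression, and 3 to 7 with a library left out (3 without control replicate 71 or 72 or mutant replicate 75, 78 or 79, and 7 without control replicate 76 or mutant replicate 74). The fit on low Y-linked libraries had 2 controls and called 90 of all genes tested. *Wnt4*, *Lhx1* and *Tmem100* were called in each of the 9 fits with a library left out. The value of *Pax8*, near 0, turned positive with DESeq2 and RLE (0.01), the Y-linked covariate (0.03) and low Y-linked libraries (0.07), and was -0.14 to 0.13 with a library left out; *Bmp2* turned to 0.17 in low Y-linked libraries. The adjusted p ranged over the alternatives from 0.000126 to 0.197 for *Wnt4*, 0.0186 to 0.194 for *Emx2*, 0.00942 to 0.562 for *Ccnd1* and 0.0107 to 0.5 for *Fgf8*. With a library left out, 1 to 3 other early nephron genes, 0 to 1 progenitor, 0 to 3 Wnt, 0 to 4 FGF, 2 to 8 Notch and 1 to 3 BMP genes were called. DESeq2 called 3 other early nephron, 1 progenitor, 6 Wnt, 4 FGF, 7 Notch and 4 BMP genes. The cause was not tested. *Emx2* could not be tested with at least 10 counts required in every library. Depth limits *Emx2* and, in mutant cells, *Lhx1*. No paired analysis was possible because the genotypes share no replicate number.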
